A study of Mus musculus with 24 samples.

Results

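In the peak lists deposited for STAU2 RNA immunoprecipitation (RIP) from mouse embryonic cortex, 305 of 29007 peaks (1.05%) were wider than 5000 bases on the genome. They were selected on their measured width alone, as end minus start over 5000 in the 8 deposited peak lists, so width, and what follows directly from it, is given as a description and was not tested. Of these wide peaks, 70 of 6530 came from the E11.5 lists, 67 of 5871 from those of E13.5, 111 of 10265 from those of E15.5 and 57 of 6341 from those of E17.5, which is 1.07%, 1.14%, 1.08% and 0.899% of the peaks of each day. The design set STAU2 RIP beside input RNA, with 3 RIP and 3 input libraries for each day and 24 libraries in all. The starting material was mouse cortex at embryonic day 11.5, 13.5, 15.5 or 17.5, and each biological replicate pooled the cortices of a litter. Per the labels' protocols, the RIP-seq results of a mouse anti-STAU2 antibody were set directly against input, and RIP with an anti-T7 control antibody was read by qPCR and not sequenced. The lists do not state whether the authors' test was one-sided, so no direction between RIP and input is taken from a listed peak. Each day has 1 list for the plus strand and 1 for the minus strand, with no value per replicate. Replicate error and library depth are therefore unknown for every value below, and differences between days are given without a test.

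STAU2 belongs to the Staufen family of proteins that bind base-paired stretches of RNA. It is known from dendrites and from dividing neural progenitors, where it helps to carry messenger RNAs and to set where they are translated and how long they last. RNA recovered with it can be spliced mRNA, in which an intron has been removed, or unspliced RNA that still holds introns. A peak is an interval of the genome, so an interval that begins in one exon and ends in a later exon also counts every intronic base in between in its width. For that reason each wide peak was described by 3 quantities: its width on the genome, where its ends lay in the GENCODE annotation, and the exonic bases left between the ends once the introns of a transcript were taken out.

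Most wide peaks ran from one exon of a gene to another exon of the same gene. The next sequences show what such an interval holds when it is read as spliced RNA, and were chosen for recurrent hosts and for hosts with little exonic sequence. Each run is coding sequence on the RNA strand from the GRCm38 transcripts, the junction falls between base 60 and base 61, and capitals mark the bases that lie inside the wide peak on every day named. In Evl, an actin regulator of the Ena/VASP family, the peaks of E11.5 and E13.5 crossed the junction of chr12:108653099 to chr12:108673289, over an intron of 20189 bases. In Naa35, a subunit of a protein acetyltransferase, those of E13.5 and E15.5 crossed chr13:59586281 to chr13:59595349, over 9067 bases. In Ubac2, those of E13.5 and E17.5 crossed chr14:122008913 to chr14:122019950, over 11036 bases. In Hnrnpd, an AU-rich element binding protein, those of E11.5 and E13.5 crossed chr5:99976534 to chr5:99967387, over 9146 bases. In Gli3, a transcription factor of Hedgehog signalling in cortical progenitors, the E13.5 peak crossed chr13:15662530 to chr13:15713499, over 50968 bases. In Ptn, which encodes the growth factor pleiotrophin, the E13.5 peak crossed chr6:36741278 to chr6:36715762, over 25515 bases.
Evl: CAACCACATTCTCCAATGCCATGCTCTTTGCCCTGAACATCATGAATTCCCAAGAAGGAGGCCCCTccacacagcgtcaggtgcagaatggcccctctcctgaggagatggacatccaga
Naa35: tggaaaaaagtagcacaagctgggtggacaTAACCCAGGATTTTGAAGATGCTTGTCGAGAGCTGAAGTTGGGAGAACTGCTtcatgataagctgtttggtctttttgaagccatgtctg
Ubac2: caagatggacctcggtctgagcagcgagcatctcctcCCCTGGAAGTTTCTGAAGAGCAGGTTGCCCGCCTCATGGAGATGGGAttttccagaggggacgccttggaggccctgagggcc
Hnrnpd: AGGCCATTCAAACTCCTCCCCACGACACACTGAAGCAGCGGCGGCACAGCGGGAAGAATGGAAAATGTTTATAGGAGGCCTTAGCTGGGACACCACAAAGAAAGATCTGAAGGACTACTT
Gli3: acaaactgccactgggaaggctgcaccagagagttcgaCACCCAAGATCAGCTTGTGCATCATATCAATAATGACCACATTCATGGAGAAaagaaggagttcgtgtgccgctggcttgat
Ptn: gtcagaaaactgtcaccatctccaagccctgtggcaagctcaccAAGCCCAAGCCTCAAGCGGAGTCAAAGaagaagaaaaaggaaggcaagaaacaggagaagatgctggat

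The capitals show how little exonic sequence some of these intervals hold. The Gli3 peak was 51020 bases wide and held 52 exonic bases of the transcript used, 22 before the junction and 30 after it. The Ptn peak was 25542 bases wide and held 27, with 16 before and 11 after. In Ubac2 the E17.5 peak was 11083 bases wide with 47 exonic bases, and the E13.5 peak 11145 bases wide with 109. In Hnrnpd capitals fill the whole run, since both peaks reached further: they crossed 2 introns and held 264 exonic bases at E11.5 and 262 at E13.5.

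Across all 305, both ends lay in exons of 1 gene in 175 peaks (57.4%, exact 95% binomial interval 51.6 to 63.0). In 5 peaks the ends lay in exons of 2 genes, in 69 peaks 1 end lay in an exon, in 39 neither end did although a gene was overlapped, and 17 lay outside every annotated gene of their strand. The share with both ends in exons of 1 gene was 45.7% at E11.5 (33.7 to 58.1). It was 62.7% at E13.5 (50.01 to 74.2) and 54.1% at E15.5 (44.3 to 63.6). At E17.5 it was 71.9% (58.5 to 83.0). E11.5 had the lowest share and E17.5 the highest. With only the widest peak of each host and day these shares were 50.8% of 59 (37.5 to 64.1) and 71.9% of 57, and among the stronger 50% of peaks 48.7% of 39 (32.4 to 65.2) and 80% of 25 (59.3 to 93.2). The intervals cover counting error over peaks only, and the difference between days was not tested. On the 4 days in order, 15, 8, 16 and 2 wide peaks held no exonic base. Of these 41, 24 lay within introns and 17 outside genes. By day they were 21.4%, 11.9%, 14.4% and 3.51% of the wide peaks. Among peaks over 1000 and up to 5000 bases, the shares without an exonic base were 30.2%, 25.7%, 16.4% and 10.6%. Among peaks up to 200 bases they were 45.5%, 34.8%, 24.3% and 25.8%. A lack of exonic bases was thus not particular to wide peaks.

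**Figure D1:**
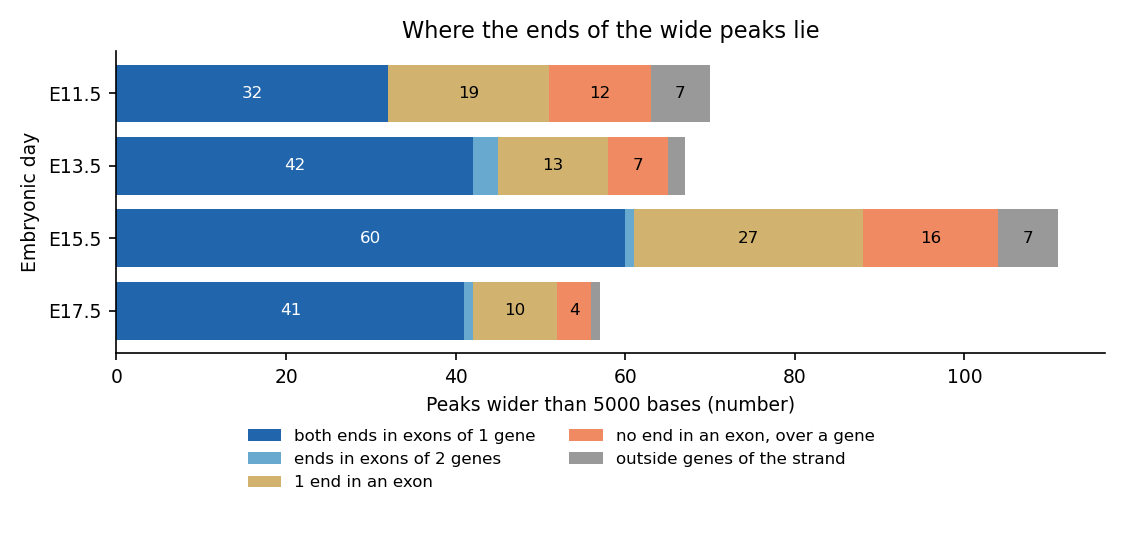
Number of wide peaks (horizontal axis) on each embryonic day (vertical axis), split by where their ends lie in the annotation of the same strand; numbers inside the bars are counts of peaks. Peaks with both ends in exons of 1 gene are the largest class on each day, 32, 42, 60 and 41 peaks.

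Of the 175, 172 crossed at least 1 intron of the transcript used. The remaining 3, in Ube2g2 and Ak6 at E13.5 and Sfpq at E17.5, had no single annotated transcript with exons at both ends. Among the 172, the exonic bases between the ends had a median of 97.5, from 9 in Slc30a10 at E15.5, a metal transporter gene, to 862 in Ywhae at E11.5, which encodes the 14-3-3 epsilon adaptor. In 157 of 172 there were fewer than 300 exonic bases of the 1 transcript used, and in none more than 1000. By day in order from the earliest, the medians were 110.5, 86.5, 92 and 108.5. Counted over all annotated exons of the strand, some of these peaks held more. The R3hdm1 peak of E11.5 held 7436 such bases and the Apopt1 peak of E17.5 held 2900. A single intron was crossed by 126 of the 172, 2 introns by 38, and 3 or more by 8. The peak over the most introns was in Mta1 at E11.5, a subunit of the NuRD chromatin remodelling complex: it crossed 7 introns over 5188 bases and held 791 exonic bases. The largest intron took a median of 98.8% of the width. It was the longest intron of its transcript in 72 peaks and the first intron in 29. Both ends lay in coding sequence in 132 peaks, 1 end in 22, neither in 13, and 5 were in noncoding transcripts. The part of the peak in its outermost exons was short, with a median of 30 bases at the 5′ side and 40 at the 3′ side.

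Narrower peaks of the same lists had the same form. Peaks from exon to exon over an intron made up 1.505% of peaks up to 200 bases, 24.95% of those over 200 and up to 1000, 52.3% of those over 1000 and up to 5000 and 56.4% of those over 5000. A peak can span only introns shorter than itself, and the median annotated intron of protein-coding transcripts was 1407 bases. The rise in this share is therefore partly set by the width classes. The median exonic length between the ends was 48, 82, 76 and 97.5 bases in these 4 width classes, while the median genomic width of these peaks went from 152 to 8171 bases. The wide class lay nearest to the class over 1000 and up to 5000 bases on each day: 45.7% against 37.6% on the earliest day, then 59.7% against 45.4%, 54.1% against 54.6%, and 70.2% against 68.8% on the latest.

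**Figure D2:**
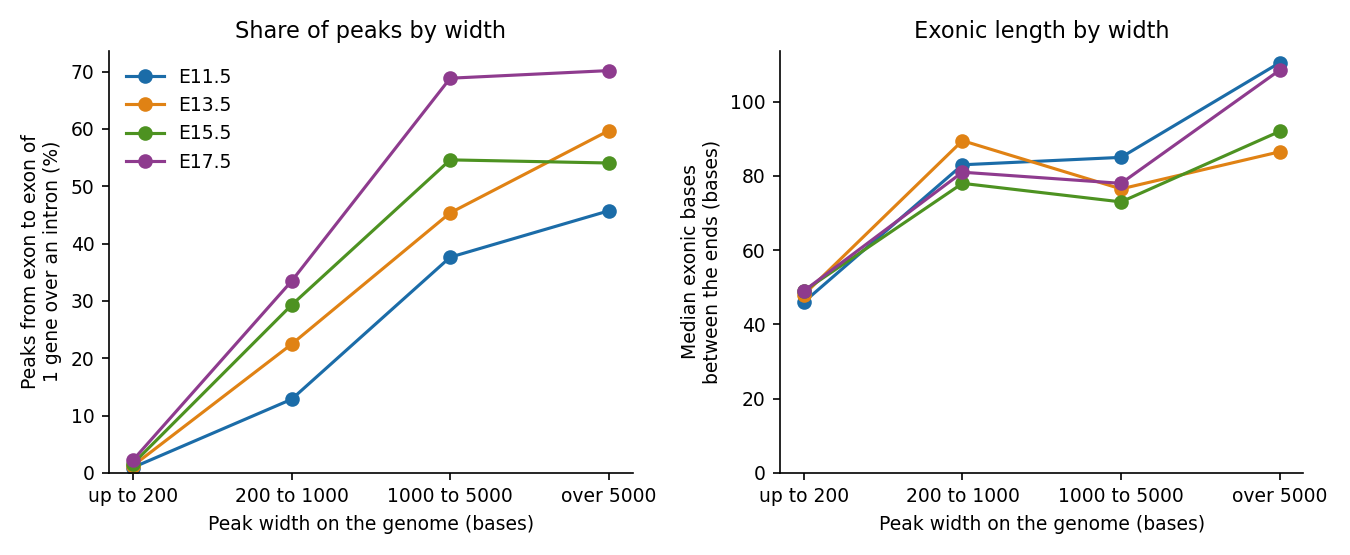
Left, percent of peaks that run from exon to exon of 1 gene over at least 1 intron, by genomic width class (bases) and embryonic day; right, median exonic bases between the ends of those peaks. Points are 1 value per day and class. The share climbs from 1.505% in the narrowest class to 56.4% in the widest, over all days, and the median exonic length stays between 46 and 110.5 bases. A narrow peak can span only a short intron, so the climb is partly set by the width classes.

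Over all widths, 2103 peaks ran from exon to exon over exactly 1 intron, and 126 of them were wide. Across these peaks, width and intron length had a Spearman correlation of 0.979, which their construction largely fixes since the intron is inside the interval. Width and exonic length had a Spearman correlation of 0.133 over the same 2103 peaks, which are not independent because many share a gene. The median exonic length was 71 bases in the 126 wide peaks and 66 in the others. Introns over 5000 bases are common in the annotation: 39849 of 209725 introns of protein-coding transcripts.

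**Figure D3:**
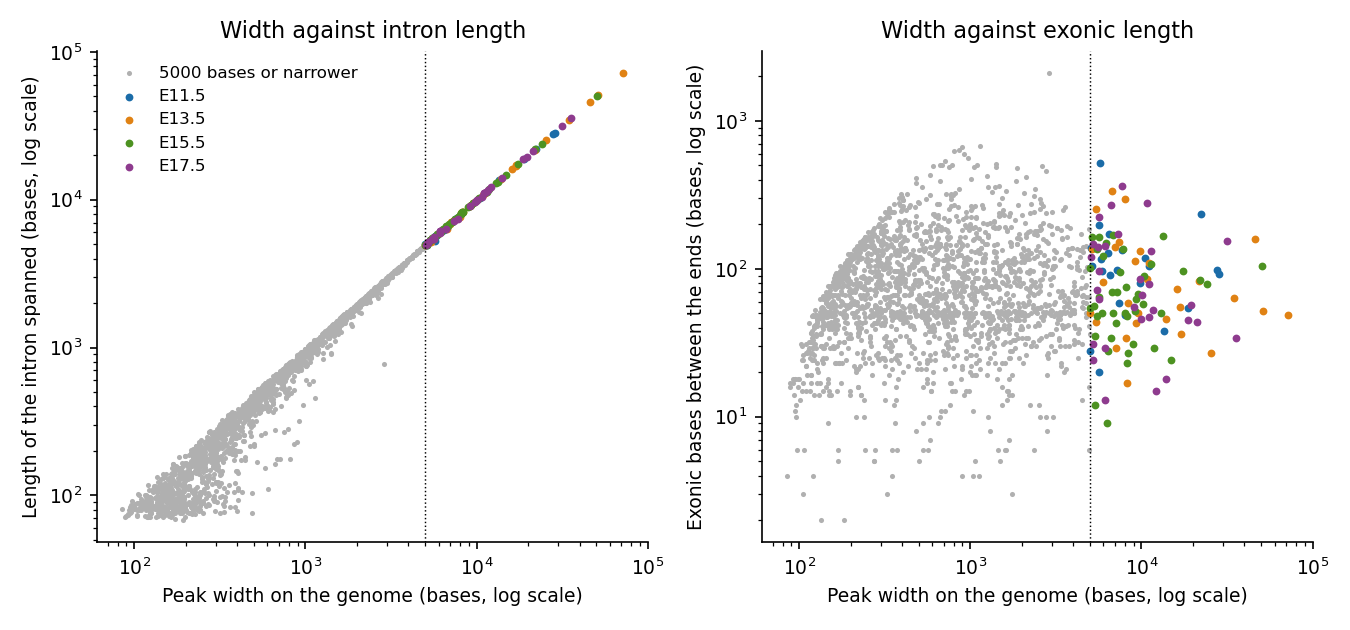
Each point is a peak that runs from exon to exon of 1 gene over 1 intron; genomic width (bases, log scale, horizontal) is set against the intron's length (left) and against the exonic bases between the ends (right), both on log scales. Grey points are 5000 bases or narrower, coloured points are wide peaks by day, and the dotted line marks 5000 bases. On the left wide points follow the intron length. On the right the wide points lie within the range of exonic lengths of the narrower ones, with medians of 71 and 66 bases.

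The width limit divides peaks of the same junctions. Just inside were Stmn3 at E13.5 (5001 bases), C530008M17Rik at E13.5 (5003), St13 at E11.5 (5007), Dynlrb1 at E15.5 (5018) and St7 at E17.5 (5024). Just outside were Dynlrb1 at E17.5 (5000), Klc1 at E15.5 (4979), Brms1l at E15.5 (4975), Stmn3 at E17.5 (4957) and Ccz1 at E15.5 (4944). Stmn3, a microtubule regulator of the stathmin family, and Dynlrb1, a dynein light chain, thus fell on both sides of it: Stmn3 measured 5001, 5114 and 4957 bases at E13.5, E15.5 and E17.5.

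Wide peaks differed in strength but were not the best-ranked of their lists. The deposited signal is the authors' value per peak, of unstated scaling, so it is used only within a day. The median signal of wide peaks was 62.1, 48.9, 30.3 and 35.4 from the earliest day to the latest, beside 24.7, 20.6, 22.8 and 22.9 over all peaks of the day. By the authors' p-value, ranked within a day, the median wide peak stood at 52.3% of its list, and 21 of 305 were in the first 10%. Peaks from exon to exon over introns had a median signal of 142.6, 52.8, 48.7 and 52.9 on the 4 days in order. The medians of those with 1 end in an exon were 44.98, 80.5, 20.9 and 16.1, so that at E13.5 (13 peaks) they lay above the exon-to-exon peaks and on the other 3 days below them. Those over a gene with neither end in an exon had 19.96, 24.1, 15.7 and 11.3, and those outside genes, only 7, 2, 7 and 1 peaks, had 9.51, 10.4, 6.66 and 3.295.

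Of the 5 wide peaks ranked best by p on each day, 2, 4, 4 and 5 ran from exon to exon over introns, 15 of 20, beside 56.4% of all wide peaks. At E11.5 they lay over a predicted microRNA gene, Gm25361, on chromosome 10 with neither end in an exon (rank 150 of 6530), in Mta1 (rank 207) and in Cux1 (rank 388), a homeobox gene of upper-layer neurons, followed by 2 adjoining peaks of 4930452B06Rik. The Cux1 peak, chr5:136316027-136332717, crossed 3 of 23 introns, was 16691 bases wide and held 363 exonic bases. At E13.5 they lay in Hnrnpd (rank 62 of 5871, the best rank of any wide peak), Ptn (rank 257), Ube2b (rank 296), a ubiquitin-conjugating enzyme gene, Smarca4 (rank 460), the BRG1 ATPase of the BAF remodelling complex, and the kinase gene Ick (rank 500). The Smarca4 peak held no exonic base, unlike the other 4. At E15.5 they lay in Tbc1d14 (rank 141 of 10265), a gene of the TBC family of Rab regulators, Cmc1 (rank 158), the processed pseudogene Gm17121 (rank 279), Polr2f (rank 457), a subunit shared by the RNA polymerases, and Lmnb1 (rank 703), which encodes lamin B1. At E17.5 they lay in Ift88 (rank 183 of 6341), an intraflagellar transport gene of the primary cilium, Npepps (rank 239), Pcp4 (rank 321), a calmodulin-binding peptide gene, Vps45 (rank 444) and Ndufaf5 (rank 469). The Pcp4 peak, chr16:96493834-96525508, spanned 31675 bases, of which the last intron took 31522 and the joined exons 153.

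Some wide peaks came back on another day. Wide peaks that shared at least 1 base on the same strand were joined into 282 loci, of which 263 were wide on 1 day, 18 on 2 days, 1 on 3 days and 0 on all 4. Loci on 2 or more days thus made up 6.74% of wide loci. Joined in the same way within a width class, they made up 5.87% of the 1312 loci of peaks over 1000 and up to 5000 bases. They made up 8.17% of the loci of peaks over 200 and up to 1000 bases and 8.51% of those up to 200. With peaks of all widths joined, they made up 11.3% of 24814 loci, but there a peak of another width also counts as a return. Between E11.5 and E13.5, 4 loci were shared (5.80% of the loci of E11.5 and 6.15% of those of E13.5), and between E13.5 and E15.5, 9 (13.8% and 8.11%). These 9 include the loci of Gm12407 with Gm21093, of Fam205a3 with Gm21586, of Gm10593 and of Gm29721. Those lie in clusters of near-identical genes described below, where the ends of an interval are not certain. E15.5 and E17.5 shared 4 (3.604% and 7.02%), E13.5 and E17.5 shared 3 (4.62% and 5.26%), E11.5 and E15.5 shared 1 (1.45% and 0.901%), and E11.5 and E17.5 shared 0. In 14 cases out of 158 introns that were the largest of an exon-to-exon wide peak, the same intron was spanned on 2 days.

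The locus on 3 days was Cmc1, a gene for a factor of cytochrome c oxidase biogenesis, on the minus strand of chromosome 9. The peak of E13.5 was 34650 bases wide over intron 1, with a signal of 41.3. Those of E15.5 and E17.5 were 50213 and 50080 bases wide over introns 2 and 3, with signals of 154 and 113. The peak of E13.5 thus adjoined the other pair and shared only a few bases of exon 2 with them, so the same introns were spanned on 2 days, not on 3.

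Some recurrent peaks repeated nearly to the base. In Nfix, a nuclear factor I transcription factor gene of radial glia, the peak was 7921 bases wide with a signal of 538 at E13.5 and 7917 bases with 854 at E15.5, with starts 2 and ends 6 bases apart. In Hnrnpd it was 11211 bases wide with a signal of 513 at E11.5 and 11209 bases with 1009 at E13.5, with starts 16 and ends 14 bases apart. In Evl it was 24924 bases wide with a signal of 439 at E11.5 and 24900 bases with 462 at E13.5, with starts 5 and ends 19 bases apart. In 1810026B05Rik, a noncoding transcript, it was 5666 bases wide with a signal of 92.6 at E15.5 and 5664 bases with 106 at E17.5, with starts 2 and ends 4 bases apart. The bars of both days coincide in the plot of loci by day for all 4.

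In other recurrent hosts 1 or both ends lay further apart. Ywhae was 8321 bases wide with a signal of 678 at E11.5 and 5445 bases with 1750 at E13.5, and at E15.5 a narrower peak of 876 bases with a signal of 773 lay in the same interval. Ube2k, another ubiquitin-conjugating enzyme gene, held 2 wide peaks of 28534 and 9875 bases at E11.5 (signals 341 and 120) and 1 of 43887 bases at E13.5 (signal 324). Pantr1, a noncoding gene beside the neural transcription factor gene Pou3f3, was 15128 bases wide at E11.5 (signal 156) and 15360 at E15.5 (signal 352), with a peak of 126 bases at E13.5. Ppp5c, a phosphatase gene, was 5537 bases wide at E15.5 (signal 65.5) and 5625 at E17.5 (signal 95.7). Naa35 was 9180 bases wide at E13.5 (signal 58.9) and 9119 at E15.5 (signal 54.3). Tbc1d14 was 9879 bases wide at E13.5 (signal 16.7) and 13367 at E15.5 (signal 35.8), where it crossed 3 introns. Aatf was 12748 bases wide at E15.5 (signal 21.99), with 1 end in an exon, and 19603 at E17.5 (signal 30.7), with both ends in exons, so it is not among the introns spanned on 2 days. Signals of different days are listed side by side only, since their scaling across days is not stated.

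**Figure D4:**
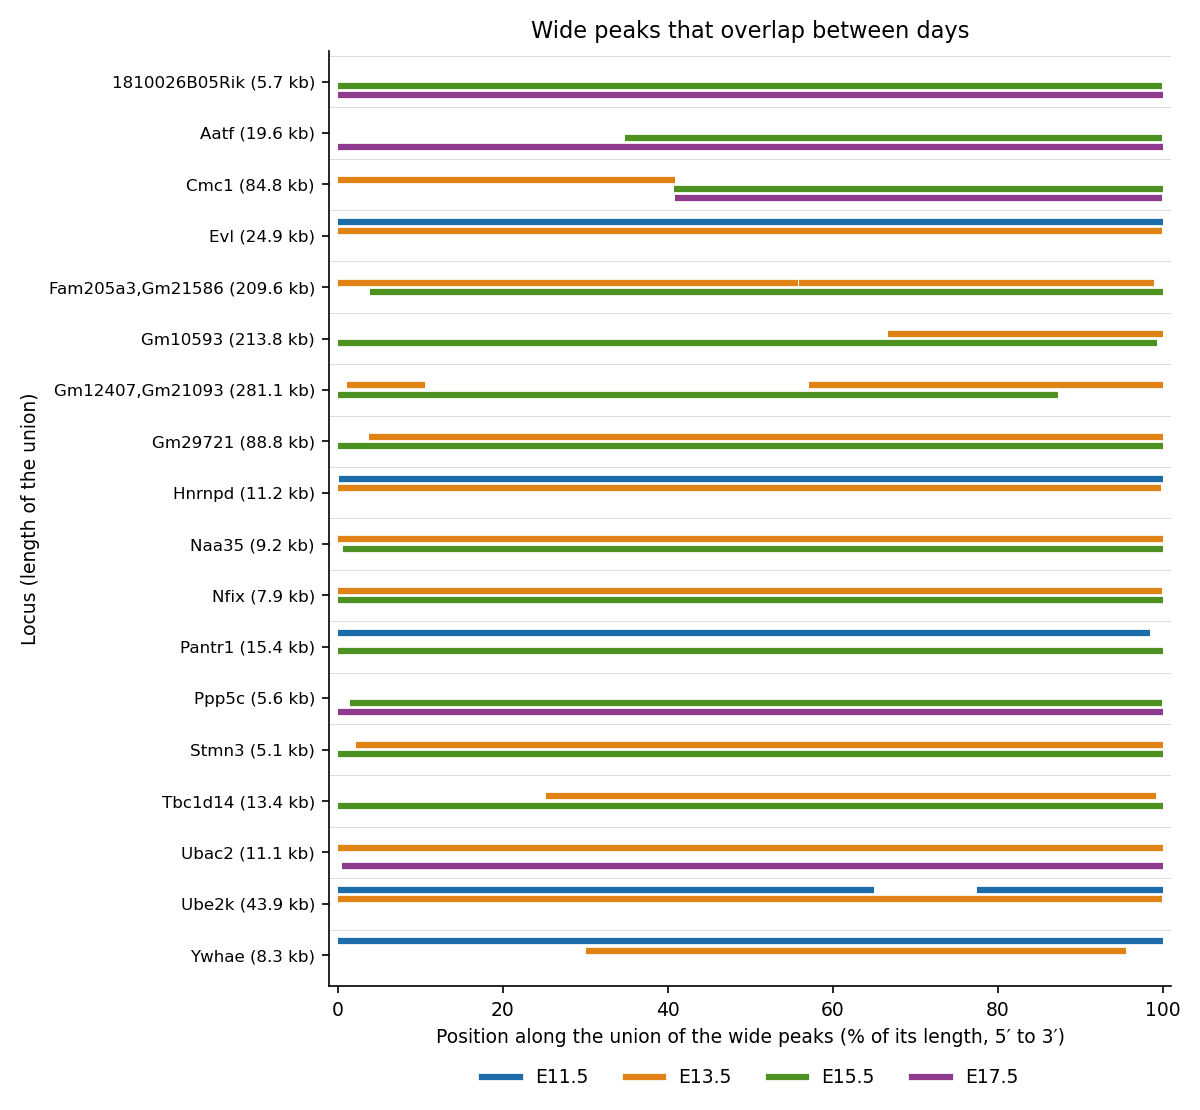
Of the 19 loci with wide peaks on 2 or more days, 18 are drawn (rows, with the length of the union in kb); bars show each day's wide peaks along the union from 5′ to 3′ (horizontal axis, percent of its length), coloured by embryonic day. In Nfix, Hnrnpd, Evl and 1810026B05Rik the bars of both days coincide, and in Cmc1 the E13.5 bar meets the other 2 at one end.

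Against all peaks and not only wide ones, 90 of 305 intervals (29.5%, exact 95% interval 24.4 to 35.0) were overlapped by any peak of another day. The share was highest for the wide peaks of E13.5, 46.3% (34.0 to 58.9), and lowest for those of E11.5, 18.6% (10.3 to 29.7). It was 25.2% (17.5 to 34.4) for E15.5 and 31.6% (19.9 to 45.2) for E17.5. Over all 29007 peaks the share was 24.1%, by day in order 20.9%, 27.3%, 22.5% and 26.9%, and over the 1401 peaks of more than 1000 and up to 5000 bases it was 25.4%. A wider interval has more bases on which another peak can fall, and the difference between width classes was not tested. The other 215 wide intervals held no peak of another day anywhere along their width. Exonic bases of 83 wide peaks were overlapped on another day, and on all 3 other days in 3 cases: Mta1 at E11.5, the predicted gene Gm47283 on the Y chromosome at E13.5, and Lhx2 at E17.5, a LIM homeobox gene of cortical progenitors. No wide peak overlapped another peak of its own day and strand (0 of 305). A peak list normally holds separate intervals, so this count is not a result about wide peaks. Exon-to-exon peaks over introns were overlapped on another day in 65 of 172 cases (37.8%), those without exonic bases inside a gene in 1 of 24 (4.17%), and those outside genes in 1 of 17 (5.88%). Wide peaks over the repeated genes described below were overlapped in 13 of 18 cases (72.2%), and 8 of these 18 peaks were from E13.5.

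Some genes carried several wide peaks in a row. Joining wide peaks of the same day and strand that lay at most 10000 bases apart gave 23 runs with 56 wide peaks, 10, 5, 7 and 1 runs on the 4 days in order. Within a run the signals were close: the highest was under 1.1 times the lowest in 16 of 23 runs, with the narrower peaks in between included. In 25 neighbouring pairs within 1 gene the signals differed by a median of 0.238%, and in 22 by 5% or less; the exceptions reached 64.9% in Ube2k. Of all 33 neighbouring pairs, 16 were under 100 bases apart, with a smallest gap of 34. Wide peaks in runs, 23, 10, 21 and 2 on the 4 days in order, had a median signal of 35.2, 58.5, 20.4 and 4.96, beside 116.7, 42.1, 35.7 and 39.04 in the others. Those in runs were thus the stronger at E13.5 and the weaker on the other 3 days. The 10 at E13.5 include 2 runs over clusters of near-identical genes described below. Their signals were 212 to 430 over Gm2808 and Gm29721, and 266 to 297 over Fam205a3 and Gm21586. Of the 56, 19 held no exonic base, against 22 of the other 249.

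Tenm4, a teneurin adhesion gene, had the longest such run inside a single gene. At E15.5, 5 wide peaks and 3 narrower ones covered 99.7% of 141060 bases at chr7:96553717-96694776, with signals from 20.8 to 21.3. From its outer ends the run reached from exon to exon over a single intron of 141022 bases of the transcript used, with 38 exonic bases. Another annotated transcript has an exon inside this intron, at the gap between the fourth and the fifth wide peak. Adgrv1, a giant adhesion receptor gene, had 5 wide peaks and 1 narrower peak over 86984 bases at E15.5, with signals from 15.63 to 15.67. Sox6, a transcription factor gene active in cortical progenitors and interneurons, had 6 wide peaks at E11.5 among 89 peaks over the gene, and all 48 peaks within the stretch of 110405 bases that holds the wide ones had signals between 19.6 and 20.4. The widest Sox6 peak, of 13838 bases, held exonic bases of the gene. The outer ends of the Sox6 runs lay outside exons. Shorter runs lay in Stk24 (signals 35.15 and 35.22), 4930452B06Rik (14.4 and 14.5), Itfg1 and Cacng7 at E11.5, in Usp7 and Tcf4 at E13.5, and in Nsg2 and Dis3l2 at E15.5. The outer ends of 5 of 23 runs lay in exons of 1 gene: 4930452B06Rik, Ube2k, Cacng7, C530008M17Rik and Tenm4. Whether such a run stands for 1 RNA or several was not tested.

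**Figure D5:**
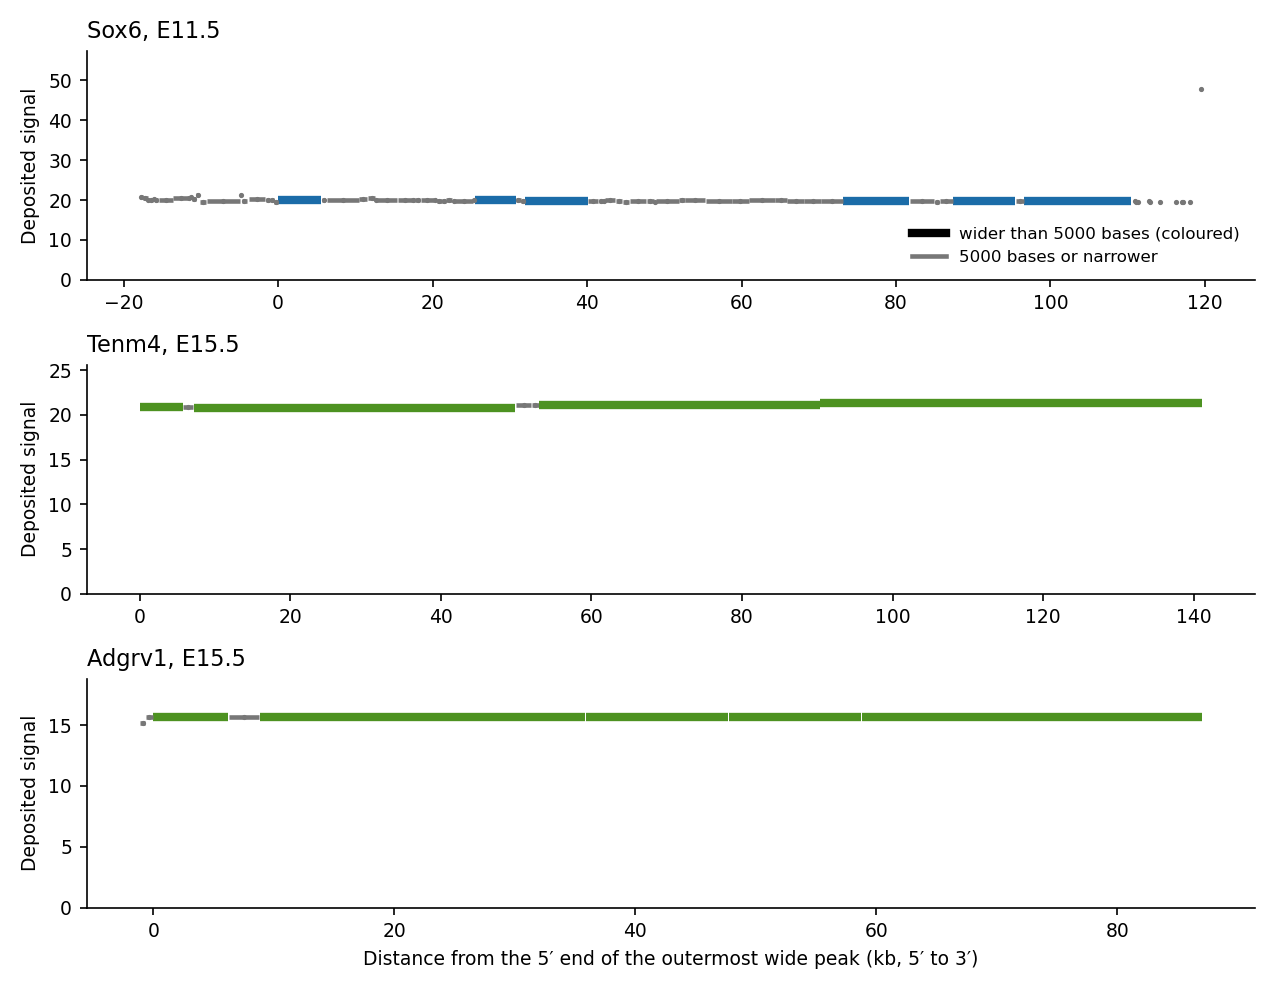
Deposited signal (vertical axis from 0, authors' scale without a stated unit) of each peak over Sox6, Tenm4 and Adgrv1, drawn as a bar along the distance (kb, 5′ to 3′) from the 5′ end of the outermost wide peak. Thick coloured bars are wide peaks, thin grey bars and dots are narrower peaks. Within each stretch the bars lie at 1 level: 19.6 to 20.4 in Sox6, 20.8 to 21.3 in Tenm4 and 15.63 to 15.67 in Adgrv1.

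The widest peaks lay mostly over clusters of near-identical genes. Of 21 peaks over 50000 bases, 3, 8, 9 and 1 were from the 4 days in order. To describe repeated sequence, the share of 50-base windows of a gene's longest transcript that also occur in a transcript of another gene elsewhere was counted. Genes with more than 50% of such windows made up 32 of 44 genes with an exon in a peak over 50000 bases, and 4 of 239 among genes whose widest peak was up to 50000 bases. The share over all annotated genes was not counted, so these counts have no background beside them. The 32 genes lay in clusters on chromosomes 2, 4, 12 and 17, where 1 peak could hold exons of 8 of them. At least 1 such repeated gene lay in 13 of the 21 peaks over 50000 bases, in 3 of 39 peaks over 20000 and up to 50000 and in 2 of 245 narrower ones. By day these 18 peaks were 4, 8, 6 and 0. For these genes the reads of one copy and another may not be separable in the authors' alignment, so neither the assigned copy nor the ends of the interval is certain, and the part of read placement in the widths was not tested.

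At E11.5, 1 peak of 150782 bases, chr12:55099266-55250047 with a signal of 1038, ran over Srp54a, Srp54b and Srp54c, copies of the gene for the 54-kDa subunit of the signal recognition particle, and over Fam177a and its copy 1700047I17Rik2. Windows shared with another gene made up 75.2% of Srp54a, 99.8% of Srp54b and 93.9% of Srp54c. The widest peak of that day, 171265 bases on chromosome 2, ran over the predicted genes Gm14296, Gm14390 and Gm14405, and 3 further wide peaks continued it over a total of 273765 bases, with signals from 59.2 to 63.7. One of those 3 had 1 end in an exon of Gm14308, whose transcript shared 100% of its windows with Gm14434. No wide peak lay over either cluster on another day.

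On chromosome 4, wide peaks on both strands covered a cluster with chemokine genes Ccl27a, Ccl27b and Ccl21b, Fam205a3 and predicted genes, at E13.5 and E15.5. Exons of Ccl21b and Fam205a3 lay in wide peaks on both days, and those of Ccl27a and Ccl27b at E13.5 only. On the plus strand, E13.5 had 3 wide peaks of 117059, 90368 and 71307 bases with signals of 297, 266 and 133, and E15.5 had 2 of 201350 and 212466 bases with signals of 443 and 231. On the minus strand, E13.5 had wide peaks of 120649 and 26485 bases with signals of 80.5 and 128, and E15.5 had wide peaks of 245523 and 104838 bases with signals of 160 and 67.1. The peak of 245523 bases, chr4:41809531-42055053, was the widest of all lists. At E11.5 the same region held 6 peaks, all on the minus strand and 49 to 191 bases wide, and at E17.5 no peak. All windows of Ccl21b, Fam205a3, Gm10591, Gm10593, Gm21093 and Gm21586 occurred in a further gene. On chromosome 17, peaks of 73140 and 85513 bases at E13.5 (signals 430 and 212) and of 88826 bases at E15.5 (signal 187) ran over Gm2808, Gm29721 and the pseudogenes Tmem181b-ps and Tmem181c-ps.

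Peaks over 50000 bases without repeated genes mostly lay over long introns. Gng12, a G protein gamma subunit gene, had 71896 bases at E13.5 with a signal of 13.7, of which 1 intron took 71847 and its joined exons 49. Bach2 had 80276 bases at E15.5 with a signal of 72.4 and 1 end in an exon. The others were Gli3, Tenm4, Cmc1 on 2 days, the interval with Cyp21a1 and part of C4a at E15.5 (51970 bases, signal 12.9), and 1 interval outside genes that belongs to the chromosome 2 cluster.

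Exons of 2 or more annotated genes lay in 43 wide peaks. E13.5 had the most, 16 (23.9%), beside 8 (11.4%) at E11.5. E15.5 had 11 (9.91%) and E17.5 had 8 (14.04%). Many of these were a coding gene with a small or predicted gene in its intron. Others joined neighbouring genes: Nme1 with Nme2, which encode nucleoside diphosphate kinases, at E13.5 (7643 bases, signal 494), H2-T22 with H2-T23, major histocompatibility class I genes, at E13.5 (8065 bases, signal 48.1), and C4a with Stk19 at E15.5 (8748 bases, signal 13.1). A further annotated gene, Gm20390, overlaps both Nme1 and Nme2 and also had exons in their peak.

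MicroRNA genes with a RefSeq mature sequence lay inside 4 wide peaks. Mir128-1, in an intron of R3hdm1, was inside a peak of 17693 bases at E11.5 with a signal of 66.3. Exons of all annotated transcripts took 7436 bases of that peak. Mir342, in the recurrent intron of Evl, was inside both peaks of that gene, and Mir1930 was inside the Ube2g2 peak of 10577 bases at E13.5. The mature sequences are from RefSeq on GRCm38.p6, shown to identify what lies in these introns, with the seed (bases 2 to 8) in capitals.
miR-128-3p: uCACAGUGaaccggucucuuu
miR-342-3p: uCUCACACagaaaucgcacccgu
miR-1930-5p: aCCUCCAUaguaccugcagcgu

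These microRNAs share no seed. The microRNA genes lie at chr1:128202361-128202430, chr12:108658620-108658718 and chr10:77641224-77641307, far from the exons in which the peaks of R3hdm1 and Evl end. The lists give 1 value per interval, so they do not show whether reads lay over the microRNA hairpins.

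Host genes were varied. There were 240 of them, and 263 of 305 peaks had a protein-coding host. Exons of 239 of 21992 protein-coding genes lay in a wide peak, beside 6610 with an exon in a peak of any width. Among 62 genes of RNA binding and translation control, 53 had an exonic peak of any width and 3 a wide one. These were Nova2 at E13.5 (16124 bases, signal 33.8) and Rbfox3 at E17.5 (7752 bases, signal 58.2), neuronal splicing regulators, and Drosha at E15.5 (11011 bases, signal 30.6), the nuclear nuclease of microRNA processing. Among 38 chromatin regulators, 34 had an exonic peak and 1 a wide one: Ehmt1, a histone H3 lysine methyltransferase, at E17.5 (9105 bases, signal 61.3). The Smarca4 interval was intronic only. Among 34 ribosomal protein and translation factor genes, 8 had an exonic peak and 0 a wide one.

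Of 36 neuronal genes, 27 had an exonic peak of any width and 2 a wide one, Cux1 at E11.5 and Bcl11a at E13.5 (7015 bases, signal 133). Of 25 progenitor genes, 18 had an exonic peak and 2 a wide one, Gli3 at E13.5 (signal 75.9) and Lhx2 at E17.5 (14308 bases, signal 109). Of 20 genes of blood, vessels and meninges, 10 had an exonic peak and 0 a wide one. Peaks of neuronal and progenitor genes thus stood in the lists of tissue labelled as cortex, although a peak list gives no expression level. Of 25 noncoding and nuclear RNAs, 12 had an exonic peak and Pantr1 alone a wide one. In a list of multicopy families taken by the start of the symbol, 1024 of 29817 genes had an exonic peak of any width and 63 a wide one, mostly predicted genes named Gm; the same letters also took in Rps6ka3, a kinase gene, and Ndufaf5, which belong to no such family.

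A host could be wide on 2 days without sharing a locus. R3hdm1 was 17693 bases wide at E11.5 and had a different interval of 7817 bases at E15.5 (signal 14.8). Cuedc1 had adjoining introns spanned, intron 2 at E15.5 (7138 bases, signal 12.3) and intron 3 at E17.5 (5229 bases, signal 39.0). Ergic1 had separate intervals at E11.5 (5818 bases, signal 138) and E15.5 (7239 bases, signal 22.8). By host gene, 218 were wide on 1 day, 21 on 2 days, 1 on 3 days and 0 on 4.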

How the data were processed

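Values came from 8 deposited peak lists in mm10, 1 per embryonic day and strand, without headers. Behind each pair of lists stand 3 STAU2 RIP and 3 input libraries, which have no values of their own here. Each peak has a score, a signal, a p-value and a q-value deposited by the authors; the peak caller, and the data it drew them from, are not stated in any label or header used here. The deposited score was not used. The deposited signal has no stated unit, and the authors' p-values only ranked peaks within a day. Per the submitters' processing notes, bedtools 2.17.0, Cufflinks 2.2.1, TopHat and TopHat2 2.0.9 were used. Libraries were strand-specific (ScriptSeq kit, per the labels' protocols), and each list was taken as 1 genome strand.

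Peaks wider than 5000 bases were kept. Ends, exons and introns were read from GENCODE vM21 (GRCm38, the assembly of mm10) on the peak's strand. The host was a gene with exons at both ends of the peak, or else a gene with any exon in it. Among several such genes the one with most exonic bases was taken. Where no exon lay in the peak, the host was the gene with the largest overlap. Exonic length used 1 transcript that holds both ends, coding and longest where there was a choice. Wide peaks sharing at least 1 bp were joined into loci. Scripts (Python 3.11, pandas) were tested on simulated annotation. Intervals for shares are exact Clopper-Pearson with 95% confidence and cover counting error only. Peaks are not replicates, and without read totals or replicate values no test was run and precision is unknown. Genes named are those on most days (with the 10 best summed ranks among those on 2 days), the 5 widest and 5 best-ranked peaks of each day, list members and peaks beside the limit; the runs, the repeated genes, the neighbouring genes and the microRNA hosts were chosen after their values were seen. The members and lists were chosen with earlier results of these data known. No intron sequence was read. Of the recurrent loci, 1 is counted but not reported here.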

Additional observations from a re-analysis of the deposited data

How the results depend on the processing

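With a width limit of 3000, the number of wide peaks was 128, 121, 213 and 123 from E11.5 to E17.5, loci on 2 or more days numbered 42, and the median exonic share of a peak's bases at E15.5 was 1.60% against 0.871%. With a limit of 10000 the numbers were 26, 27, 45 and 23 with 11 such loci; the share over exons of 2 or more genes was 30.8% at E11.5 and 44.4% at E13.5, both ends lay in exons of 1 gene in 37.8% at E15.5, and the median exonic share was 0.517% at E15.5 and 0.582% at E17.5. At an authors' q below 0.001, 0 wide peaks remained on each of the 4 days and 0 loci, so no share could be given; of all 29007 peaks, 10 passed this limit. With protein-coding genes only, the share over exons of 2 or more genes was 2.86%, 8.96%, 3.604% and 3.51%. Requiring both ends within 50 bases left 4 recurrent loci in place of 19, while a reciprocal overlap of at least 50% left 17. Among the stronger 50% of peaks of a day, an alternative chosen after seeing the data, the numbers were 39, 29, 54 and 25, with 4 such loci. The remaining values under these settings, and all those for basic transcripts only, for the widest peak of each host and day (also chosen after seeing the data), for exonic overlap only and for peaks fully inside, stayed within the counting interval or within 1.5 times. The cause of these shifts was not tested, apart from the fewer peaks or genes that a stricter limit leaves by construction. No paired analysis was possible because the lists hold no replicate columns. Depth cannot be stated, since the lists give no read totals.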

Other observations

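The 17 wide peaks outside annotated genes of their strand numbered 7, 2, 7 and 1 on the 4 days in order. Of the 7 at E11.5, 2 belonged to the chromosome 2 cluster (76371 and 19721 bases, signals 59.8 and 59.2), and 2 adjoined each other on chromosome 9 with signals of 6.729 and 6.730. At E15.5 the widest of them, 30565 bases with a signal of 20.4, lay on chromosome 7 beside a peak of 23384 bases that had 1 end in an exon of Snrpn, the imprinted gene of a small nuclear ribonucleoprotein. Snrpn had a further wide peak of 6728 bases with a signal of 94.3 on that day. At E17.5, 2 neighbouring peaks over CT033759.2 and, in part, the cytochrome P450 gene Cyp4f37 had signals of 4.960 and 4.959, and they were the only run of that day.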
